A study of Mus musculus with 4 samples.

Results

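Hedgehog signalling in the testis was followed through 8 genes: the ligand Dhh, the receptors Ptch1 and Hhip, the transducer Smo, the transcription factors Gli1, Gli2 and Gli3, and their inhibitor Sufu. They were chosen by name, as the rows of the deposited gene table whose symbol matched, and all 8 were found among its 25265 genes. The table comes from whole testes of C57BL/6 mice at postnatal day 56, from which total RNA was depleted of ribosomal RNA and sequenced. There were 2 libraries labelled control and 2 labelled Ythdf2-vKO, called vKO here. The series title describes a germ cell-specific mutation of Ythdf2, which encodes a reader of the N6-methyladenosine (m6A) mark on RNA. The labels do not name the promoter that drives the deletion, the genotype of the control mice beyond the word control, or whether each library is a separate animal. If the libraries are not separate animals, p-values measure only the spread between these libraries.

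Desert hedgehog is the hedgehog ligand made by Sertoli cells, the somatic cells that nurse the germ line. It is received mainly by cells around and between the tubules, the peritubular myoid cells and the Leydig lineage, and male mice without it are sterile. Without ligand, PTCH1 keeps the membrane protein SMO inactive, and SUFU holds the GLI factors back from the nucleus. When ligand binds PTCH1, SMO is released, GLI2 and GLI3 are no longer turned into repressors, and Gli1, Ptch1 and Hhip are induced, so that their transcripts are used as readouts of the pathway.

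Total counts were 24862518 and 29561182 in the control pair, against 26298245 and 26265700 in the vKO-labelled pair. Ythdf2 itself had 1193 and 1604 counts in the control pair, against 1774 and 1807 in the vKO-labelled pair. It was therefore not lower where the label says it was mutated (log2 fold change 0.35, SE 0.13, adjusted p = 0.238 after Benjamini-Hochberg adjustment of edgeR's quasi-likelihood p). Fitted with both a GC offset and replicate blocking, Ythdf2 was called higher (log2 fold change 0.40, adjusted p = 0.0367 by edgeR), and over 13 alternatives the adjusted p ran up to 0.866. The deleted segment is not named in the labels, so whole-gene counts may not read it, and each direction below is vKO-labelled over control. Transcript GC content went with the level of genes differently in each library, with Spearman correlations across 17817 genes of 0.0237 and -0.399 in the control pair, against 0.254 and 0.189 in the vKO-labelled pair. Genes of 1 library are not independent replicates, and these values only describe it.

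The sequence upstream of each start site is shown for 3 members, the ligand and the members with the most and the fewest CpG dinucleotides, to set beside their levels. Each is the 250 bases before the RefSeq start (GRCm38.p6), 5′ to 3′ on the gene's strand, with CpG in capitals. Dhh lies on the minus strand (chr15:98898541-98898790), as does Ptch1 (chr13:63565736-63565985), and Sufu on the plus strand (chr19:46396646-46396895). No exon of the GENCODE M21 annotation falls in these 3 windows.
Dhh: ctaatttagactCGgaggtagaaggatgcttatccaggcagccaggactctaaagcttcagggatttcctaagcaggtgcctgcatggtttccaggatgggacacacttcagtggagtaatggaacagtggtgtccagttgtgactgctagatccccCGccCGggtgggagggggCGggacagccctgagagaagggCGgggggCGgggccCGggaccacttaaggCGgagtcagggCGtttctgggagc
Ptch1: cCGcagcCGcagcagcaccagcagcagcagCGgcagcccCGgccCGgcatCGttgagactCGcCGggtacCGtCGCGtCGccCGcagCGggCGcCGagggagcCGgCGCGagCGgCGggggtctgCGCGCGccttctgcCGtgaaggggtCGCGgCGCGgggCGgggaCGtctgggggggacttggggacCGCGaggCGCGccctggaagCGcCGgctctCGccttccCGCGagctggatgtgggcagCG
Sufu: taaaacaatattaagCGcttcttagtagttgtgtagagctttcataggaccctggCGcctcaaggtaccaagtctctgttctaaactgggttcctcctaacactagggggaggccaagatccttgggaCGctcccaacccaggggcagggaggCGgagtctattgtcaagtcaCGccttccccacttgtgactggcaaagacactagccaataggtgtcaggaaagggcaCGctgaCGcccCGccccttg

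RefSeq promoter windows were found for 7 of the 8 members; Gli1 was the one without. The Ptch1 window held 41 CpG, at or above 99.1% of 32851 mouse promoter windows of the same length, whose median was 6. Windows of Gli3, Hhip, Gli2 and Smo held 34, 28, 22 and 15 CpG. Those of Dhh and Sufu held 9 and 8. The GLI recognition sequence GACCACCCA, searched on both strands, was in none of the 7 windows and in 0.225% of all windows. Its 6-base core CACCCA was also in none of the 7, against 19.3% of all windows. These matches describe letters in short windows, and Ptch1 and Gli3 start further upstream in M21 than in RefSeq.

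Levels between genes were compared as CPM per kb, that is, library-scaled counts (CPM, scaled by TMM) divided by the exonic length of the gene in M21. Sufu stood far above all other members, with 27.2 and 21.3 CPM per kb in the control pair, against 26.9 and 23.8 in the vKO-labelled pair. That placed the inhibitor at percentile 86.5 of the 21132 genes tested. Dhh came next among the members, at 2.28 and 2.28 CPM per kb in the control pair, against 2.40 and 2.54 in the vKO-labelled pair, near the middle of all genes at percentile 44.9.

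Below the ligand the levels dropped 4.13-fold to Smo, which had 0.487 to 0.724 CPM per kb over the 4 libraries. Ptch1 followed at 0.338 to 0.527, Gli1 at 0.223 to 0.354, Gli2 at 0.117 to 0.250 and Gli3 at 0.157 to 0.199 CPM per kb. Each of these 5 genes overlapped with its neighbour in range over the libraries. Within libraries, Smo lay above Ptch1 and Ptch1 above Gli1 in all 4, Gli1 above Gli2 in 3 and Gli2 above Gli3 in 2. Hhip was lowest at 0.00943 to 0.0453 CPM per kb, 6.63-fold under Gli3 and with no overlap. Dividing by the longest transcript instead of all exons exchanged Gli2 and Gli3 and left the rest of this order as it was. The order of levels did not follow CpG content upstream: Sufu had the fewest CpG and the highest level, and Ptch1 the most CpG at 0.402 CPM per kb.

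**Figure D1:**
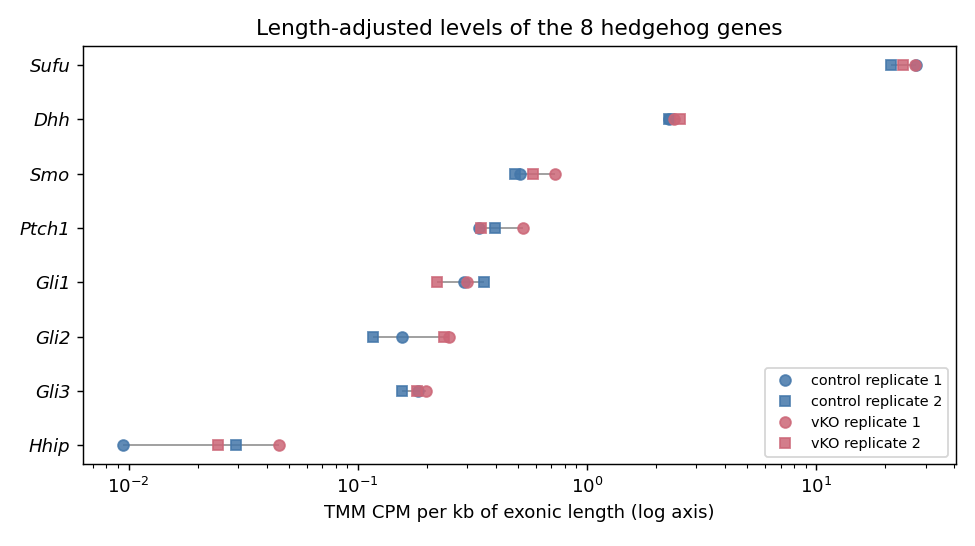
Level of the 8 hedgehog genes in each library, as TMM CPM per kb of exonic length on a log axis; points are libraries and grey lines join the lowest and highest. Sufu sits at 21.3 to 27.2, Dhh at 2.28 to 2.54 and Hhip at 0.0453 or less, while the ranges of Smo, Ptch1, Gli1, Gli2 and Gli3 overlap from one gene to the next.

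Summed over Gli1, Gli2 and Gli3, the GLI level per kb was exceeded by that of Sufu 43.2-fold and 34.0-fold in the control libraries and 35.9-fold and 37.2-fold in those labelled vKO. Both vKO-labelled values lay between those of the control libraries. The ligand exceeded its receptor Ptch1 by 4.56-fold to 7.38-fold, with both of these extremes in the vKO-labelled libraries. Ptch1 was below Smo per kb in all 4 libraries, at 0.594 to 0.817 of its level. RNA from a whole testis mixes the cells that make and receive the ligand, so these ratios are not those of any one cell, and fewer cells of a type cannot be told apart from less RNA per cell.

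The comparison of genotypes asked whether a germ-cell mutation went with a change in this somatic signalling axis. None of the 7 members that could be tested passed an adjusted p under 0.05 in edgeR's quasi-likelihood test, against 0.393% of all 21132 genes tested. None reached an unadjusted p under 0.05 either, against 14.1% of all genes, and a DESeq2 Wald test called none of the 5 for which it gave an adjusted p, which leaves out Gli1 and Gli2. The 2 groups did not overlap for Dhh, Smo and Gli2, or 3 of the 7, against 45.3% of all genes. The log2 fold change was above 0 for 6 of the 7, with a median of 0.17, against 50.3% of all genes and a median of 0.00265. Hhip was the member not tested, because its counts were too low for the filter.

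Dhh (ENSMUSG00000023000, chromosome 15, 98891152 to 98898540) had 234 and 301 counts in the control pair, against 283 and 302 in the vKO-labelled pair. In CPM this was 10.01 and 10.04 against 10.6 and 11.2. The control libraries were nearly equal and both lay just under the others. For the ligand this gave a log2 fold change of 0.12 (SE 0.18, 95% interval -0.26 to 0.50), with an adjusted p of 0.823 by edgeR's quasi-likelihood test. With an offset for GC content it was 0.04. These libraries could thus not separate Dhh from no change, and the interval leaves out a doubling.

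Reads at the Dhh locus have other possible owners. Gm49442, annotated as an antisense gene, overlaps exons of Dhh on the opposite strand, and it had 191 and 199 counts in the control pair, against 238 and 373 in the vKO-labelled pair. Exons of the coding gene Rhebl1 overlap those of Dhh on the same strand, with 83 and 83 counts in the control pair, against 151 and 159 in the vKO-labelled pair. The libraries were directional, but whether reads were counted by strand is not given in the sources used here, so the division of reads between Dhh and these genes is uncertain.

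The markers of Sertoli cells, the source of the ligand, were set beside Dhh. The 18 genes of the Sertoli list summed to 1417 and 1511 CPM in the control pair, against 2076 and 1842 CPM in the vKO-labelled pair. Of its 17 tested genes, all 17 had a log2 fold change above 0, against 50.3% of all genes. In edgeR's quasi-likelihood test 11 had an unadjusted p under 0.05, against 14.1% of all genes. That test called 1, the transcription factor gene Wt1, against 0.393% of all genes. The DESeq2 Wald test called 4 of the 16 with an adjusted p there, beside 137 genes higher and 80 lower over the whole table. The median log2 fold change of the 17 was 0.46, and 15 of them did not overlap between groups, against 45.3% of all genes. Germ cell markers were summed in the same way. The 12 spermatid genes, led by the protamine gene Prm2, summed to 9679 and 8197 CPM in the control pair, against 7554 and 7675 CPM in the vKO-labelled pair, with a log2 fold change above 0 for 3 of 12. The 12 spermatocyte genes, led by Hspa2, summed to 3162 and 2768 CPM in the control pair, against 3144 and 2896 CPM in the vKO-labelled pair, with 2 of 12 above 0. Hspa2, at a mean of 1135 CPM, was 1 of these 2 (log2 fold change 0.32), so the sum does not show the direction of most of the list. For the 12 spermatogonial genes, led by Id4, the sums were 163 and 159 CPM in the control pair, against 201 and 177 CPM in the vKO-labelled pair, with 12 of 12 above 0. Sums of spermatid and spermatogonial genes did not overlap between groups, in opposite directions. No gene of the 3 germ cell lists was called by edgeR, against 0.393% of all genes, or by the DESeq2 Wald test. Of 12 genes each, 4, 2 and 4 had an unadjusted p under 0.05 in edgeR, against 14.1% of all genes. Relative to 1000 CPM of the Sertoli list, Dhh stood at 7.07 and 6.65 CPM in the control pair, against 5.09 and 6.08 CPM in the vKO-labelled pair. The ligand was thus lower against the sum of the Sertoli genes in both vKO-labelled libraries. This sum leans on the abundant genes. Fshr and Inhbb changed about as little as Dhh (log2 fold change 0.11 and 0.14), against the median of 0.46 for the list. Without Clu, the most abundant gene of the list at 777 CPM, Dhh stood at 13.2 and 12.6 against 9.26 and 10.8 per 1000 CPM. This ratio was chosen after its parts were seen and has no test. Schwann cells are another known source of Dhh, and the 7 measured genes of their list summed to 32.9 and 35.4 CPM in the control pair, against 33.6 and 30.0 CPM in the vKO-labelled pair. The part of any of these cell types in the values of Dhh was not tested.

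**Figure D2:**
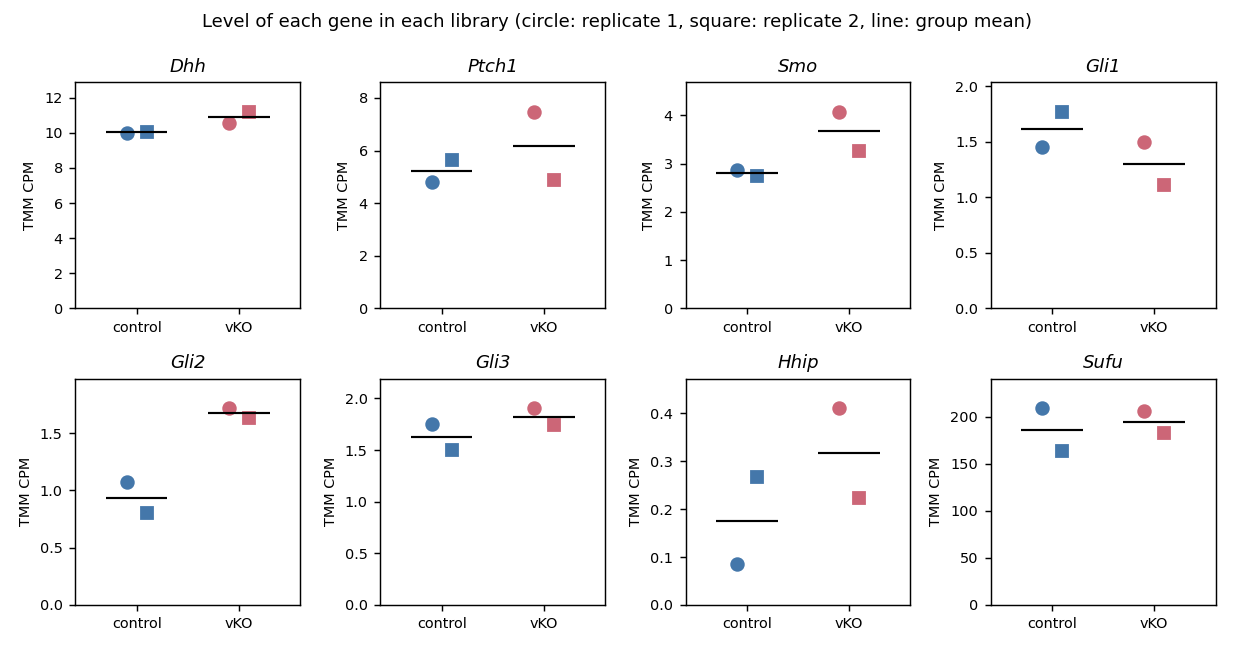
TMM-scaled CPM of each of the 8 genes in each library, with a separate vertical axis per gene starting at 0 and a line at each group mean. The groups do not overlap for Dhh, Smo and Gli2, and they overlap for the other 5 genes.

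Of the receptors, Ptch1 (ENSMUSG00000021466, chromosome 13, 63508328 to 63573598) had 112 and 169 counts in the control pair, against 200 and 132 in the vKO-labelled pair. Its CPM values were 4.79 and 5.64 against 7.47 and 4.89. The vKO-labelled replicate 1 alone was high, and the other 3 libraries lay close together. Between groups the log2 fold change was 0.24 (SE 0.25, 95% interval -0.29 to 0.78), with an adjusted p of 0.726 by edgeR's quasi-likelihood test. Leaving out that library turned the sign, at a log2 fold change of -0.09.

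Hhip (ENSMUSG00000064325, chromosome 8, 79965851 to 80058006) encodes a membrane protein that binds and sequesters hedgehog ligands. It had 2 and 8 counts in the control pair, against 11 and 6 in the vKO-labelled pair, or 0.0856 and 0.267 against 0.411 and 0.222 CPM. The groups overlapped, and control replicate 1 lay under the floor of 3 counts. The log2 ratio of the group means was 0.85 with a within-group SD of 0.93 (log2 CPM), so that a difference was not detectable at this depth. The gene passed the filter when 1 of 3 libraries was left out, and the fitted log2 fold change was then 0.23 without control replicate 1, 1.83 without control replicate 2 and 1.149 without vKO-labelled replicate 2.

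Smo (ENSMUSG00000001761, chromosome 6, 29735503 to 29761365), which carries the signal across the membrane, had 67 and 82 counts in the control pair, against 109 and 88 in the vKO-labelled pair. This was 2.87 and 2.74 against 4.07 and 3.26 CPM, with both control libraries below both others. Its log2 fold change was 0.39 (SE 0.27, 95% interval -0.19 to 0.97), with an adjusted p of 0.569 by edgeR's quasi-likelihood test. The Smo transcript has a GC content of 57.8%, and with an offset for GC content the log2 fold change was 0.22 (adjusted p = 0.797 by edgeR). Over 339 nt its transcript is 97.9% identical to that of Gm4066, which was not analysed here.

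Sufu (ENSMUSG00000025231, chromosome 19, 46396896 to 46488804) had 4893 and 4910 counts in the control pair, against 5530 and 4947 in the vKO-labelled pair. Scaled, these were 209 and 164 CPM against 207 and 183 CPM. The control libraries spanned the whole range, and both vKO-labelled libraries fell between them. The log2 fold change was 0.06 (SE 0.14, 95% interval -0.24 to 0.37), with an adjusted p of 0.891 by edgeR's quasi-likelihood test. Its transcript has a GC content of 55.8%, against a median of 48.9%. The sign turned with an offset for GC content (-0.05), without control replicate 2 (-0.10) and without vKO-labelled replicate 1 (-0.02). With the deepest counts of the 8, Sufu had the narrowest interval.

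Among the transcription factors, Gli1 is itself a target of the pathway and acts only as an activator. Gli1 (ENSMUSG00000025407, chromosome 10, 127329882 to 127341974) had 34 and 53 counts in the control pair, against 40 and 30 in the vKO-labelled pair. Its CPM values were 1.45 and 1.77 against 1.49 and 1.11, and the groups overlapped. Between them the log2 fold change was -0.31 (SE 0.38, 95% interval -1.13 to 0.51), with an adjusted p of 0.779 by edgeR's quasi-likelihood test. Gli1 was the one tested member with a log2 fold change below 0, and with the GC offset it was -0.52. Exons of Arhgap9 overlap those of Gli1 on the opposite strand. Arhgap9 had 13 and 28 counts in the control pair, against 30 and 17 in the vKO-labelled pair, below the counts of Gli1 in every library.

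Gli2, the main activator downstream of SMO, had the largest log2 fold change and the smallest p among the 7 tested members. Gli2 (ENSMUSG00000048402, chromosome 1, 118834132 to 119053619) had 25 and 24 counts in the control pair, against 46 and 44 in the vKO-labelled pair. As CPM this was 1.07 and 0.801 against 1.72 and 1.63, and the groups stood well apart. Its log2 fold change was 0.85 (SE 0.39, 95% interval -0.01 to 1.70), with an unadjusted p of 0.0515 and an adjusted p of 0.358 by edgeR's quasi-likelihood test. It ranked 3035 of 21132 genes by p and did not pass. Its transcript has a GC content of 57.5%, and with an offset for GC content the log2 fold change was 0.69 (adjusted p = 0.481 by edgeR). Over 13 alternative settings the size of this difference stayed between 0.65 and 1.05 (log2), with adjusted p between 0.257 and 0.892 in the 12 that gave one.

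Gli3 is the source of the main repressor in the absence of ligand. Gli3 (ENSMUSG00000021318, chromosome 13, 15463235 to 15730026) had 41 and 45 counts in the control pair, against 51 and 47 in the vKO-labelled pair, or 1.75 and 1.501 against 1.91 and 1.74 CPM. All 4 libraries lay close together, and the groups overlapped. Its log2 fold change was 0.17 (SE 0.34, 95% interval -0.57 to 0.91), with an adjusted p of 0.882 by edgeR's quasi-likelihood test.

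The make-up of the GLI pool was also compared, as the share of each gene in the summed level per kb. Gli1 made up 46.2% and 56.4% of the summed GLI level per kb in the control pair, against 40.0% and 34.7% in the vKO-labelled pair. Gli2 made up 24.7% and 18.6% in the control pair, against 33.4% and 37.0% in the vKO-labelled pair. Neither share overlapped between groups, while that of Gli3 did, at 24.97% to 29.0% over all 4 libraries. The shares are parts of 1 whole, so those of Gli1 and Gli2 are not separate results. In CPM, Gli1 overlapped between groups and Gli2 did not, and no overlap held for 45.3% of all genes. These shares rest on 24 to 53 counts per gene and library, were chosen after the values were seen and have no test.

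**Figure D3:**
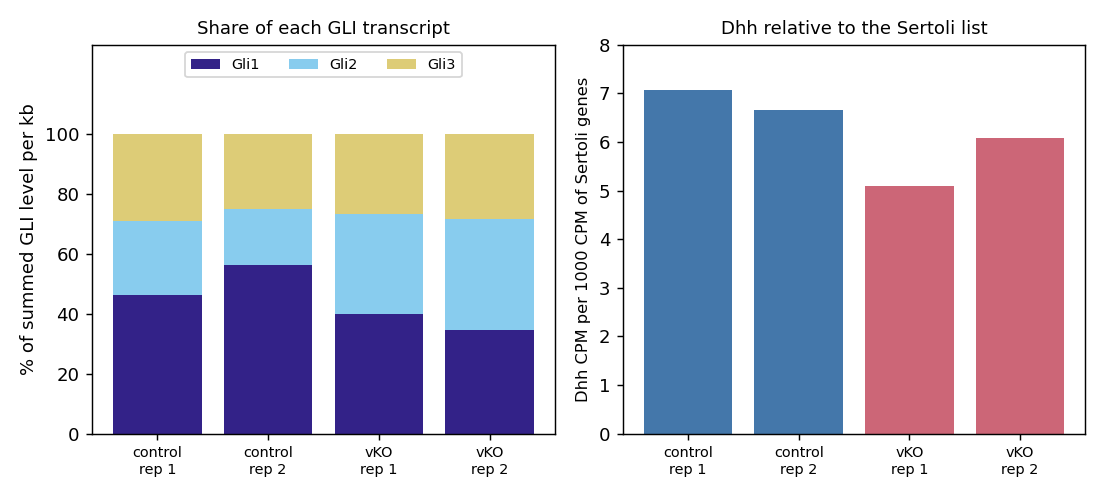
Left, share of Gli1, Gli2 and Gli3 in their summed level per kb in each library, in percent; right, Dhh CPM per 1000 CPM of the 18 Sertoli genes in each library. Gli1 takes 46.2% and 56.4% in the control pair, against 40.0% and 34.7% in the vKO-labelled pair, and the Dhh ratio is 7.07 and 6.65 in control against 5.09 and 6.08.

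Cells that receive the ligand were followed through their markers. The 11 genes of the Leydig list were led by the steroid enzyme gene Cyp17a1. They summed to 374 and 457 CPM in the control pair, against 607 and 472 CPM in the vKO-labelled pair. In log2 fold change 10 of 11 were above 0, against 50.3% of all genes. None was called by edgeR, against 0.393% of all genes, and 7 had an unadjusted p under 0.05, against 14.1% of all genes. The DESeq2 Wald test called 1 of the 11, beside 137 genes higher and 80 lower over the whole table. Against 1000 CPM of that list, Gli1 stood at 3.89 and 3.86 CPM in the control pair, against 2.46 and 2.35 CPM in the vKO-labelled pair. Ptch1 stood at 12.8 and 12.3 CPM in the control pair, against 12.3 and 10.4 CPM in the vKO-labelled pair. Gli2 stood at 2.86 and 1.75 CPM in the control pair, against 2.83 and 3.45 CPM in the vKO-labelled pair. Against the Leydig genes, Gli1 was thus lower in both vKO-labelled libraries, and Gli2 overlapped between groups. For Ptch1, both vKO-labelled values were below both control values, 1 of them only just (12.303 against 12.324 CPM). Against 1000 CPM of the peritubular myoid list, Ptch1 stood at 14.8 and 15.6 CPM in the control pair, against 19.8 and 15.7 CPM in the vKO-labelled pair. Both vKO-labelled values were above both control values, 1 of them only just. The myoid sum leans on Actg2, which had 180 and 176 CPM in the control pair, against 172 and 148 CPM in the vKO-labelled pair. This ratio was not computed without Actg2, so its order between groups may rest on that gene. These ratios were chosen after their parts were seen and have no test. The 10 genes of the peritubular myoid list, led by the smooth muscle actin gene Actg2, summed to 325 and 361 CPM in the control pair, against 377 and 312 CPM in the vKO-labelled pair. The 10 interstitial progenitor and fibroblast genes, led by Vim, summed to 93.6 and 146 CPM in the control pair, against 171 and 148 CPM in the vKO-labelled pair. No gene of these last 2 lists was called by edgeR, against 0.393% of all genes. The DESeq2 Wald test called 0 of 10 and 1 of 8 with an adjusted p there. Of their 10 and 9 tested genes, 1 and 2 had an unadjusted p under 0.05 in edgeR, against 14.1% of all genes. No marker of the Sertoli, Leydig, myoid or interstitial lists was at 0 in all libraries. Their part in the levels of the 8 genes was not tested.

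Other genes of the pathway were taken from a list of 56 that covers ligands, their release, co-receptors, cilium proteins, kinases and ubiquitin ligases. Of 55 tested, none was called in either direction by edgeR's quasi-likelihood test, against 0.393% of all genes. The DESeq2 Wald test called none of the 50 with an adjusted p there. In edgeR 4 had an unadjusted p under 0.05, against 14.1% of all genes. The log2 fold change was above 0 for 34 of the 55, with a median of 0.09, against 50.3% of all genes and a median of 0.00265. Ulk3, Csnk1e and Grk2 are described because they had the smallest p of this list. Ulk3, a kinase that phosphorylates GLI proteins, had 3.34 and 3.60 CPM in the control pair, against 6.16 and 7.23 CPM in the vKO-labelled pair. The difference was 0.95 on the log2 scale (SE 0.23, adjusted p = 0.105 by edgeR's quasi-likelihood test). It was called with the replicate number as a block (adjusted p = 0.0180), and over 13 alternatives its adjusted p ran from 0.0180 to 0.344.

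Csnk1e, a casein kinase, had 2.99 and 4.17 CPM in the control pair, against 6.20 and 5.08 CPM in the vKO-labelled pair (log2 fold change 0.65, adjusted p = 0.271 by edgeR's quasi-likelihood test). Grk2, a kinase of the active SMO receptor, had 12.9 and 12.6 CPM in the control pair, against 16.4 and 16.4 CPM in the vKO-labelled pair (log2 fold change 0.36, adjusted p = 0.323 by edgeR's quasi-likelihood test). Neither passed. The groups did not overlap in either gene, which held for 22 of the 55 tested genes of the list and for 45.3% of all genes.

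The other hedgehog ligands were near the limit of detection. Ihh, known from bone growth and the gut, had 7 and 7 counts in the control pair, against 14 and 24 in the vKO-labelled pair. Its log2 fold change was 1.40 (SE 0.63, 95% interval 0.05 to 2.76), with an adjusted p of 0.336 by edgeR's quasi-likelihood test. Shh, the ligand of limb and neural patterning, had 0 and 0 counts in the control pair, against 4 and 6 in the vKO-labelled pair. Its vKO-labelled mean of 0.186 CPM was 1.63-fold that of a floor of 3 counts per control library. This is no lower bound, because the 4 and 6 counts carry counting error too, and Shh was too low to be tested. An antisense gene overlaps exons of Shh, 9530036O11Rik, which had 3 to 10 counts per library. Per length, Dhh was the most abundant of the 3 ligand transcripts in every library, at 2.28 to 2.54 CPM per kb, against at most 0.292 for Ihh and 0.0781 for Shh.

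**Figure D4:**
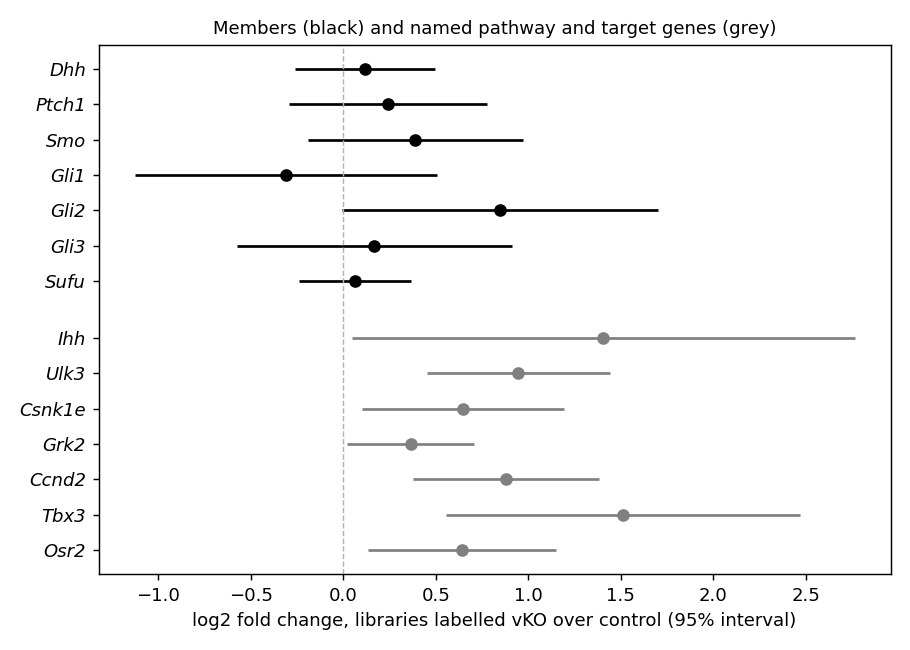
Log2 fold change of the 7 tested members (black) and of 7 named pathway and target genes (grey), vKO-labelled libraries over control, with 95% intervals from edgeR's quasi-likelihood fit. The intervals of all 7 members include 0, that of Gli2 only just at -0.01, and none of the 14 genes passed the adjusted threshold.

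Genes known as hedgehog targets in other tissues were compared as a further readout. Of 24 listed, 16 were tested and none was called by edgeR's quasi-likelihood test, against 0.393% of all genes. The DESeq2 Wald test called none of the 12 with an adjusted p there (Tbx3 had none). In edgeR 4 had an unadjusted p under 0.05, against 14.1% of all genes. The log2 fold change was above 0 for 13 of the 16, with a median of 0.17, against 50.3% of all genes and a median of 0.00265. Ccnd2, Tbx3 and Osr2 are described because they had the smallest p of this list. Ccnd2, a cyclin of the G1 phase, had 3.59 and 4.94 CPM in the control pair, against 7.14 and 8.64 CPM in the vKO-labelled pair (log2 fold change 0.88, SE 0.23, adjusted p = 0.129 by edgeR's quasi-likelihood test). Tbx3, a T-box transcription factor, had 0.856 and 0.567 CPM in the control pair, against 2.58 and 1.45 CPM in the vKO-labelled pair (log2 fold change 1.51, SE 0.44, adjusted p = 0.163 by edgeR's quasi-likelihood test). Osr2, a zinc-finger transcription factor, had 5.43 and 6.47 CPM in the control pair, against 11.3 and 7.34 CPM in the vKO-labelled pair (log2 fold change 0.64, SE 0.23, adjusted p = 0.244 by edgeR's quasi-likelihood test). With the replicate number as a block, edgeR called 627 genes higher and 390 lower, among them Ccnd2 and Tbx3 (adjusted p = 0.0166 and 0.0355). With the GC offset joined to that block, the adjusted p was 0.0259 for Ccnd2 and 0.0764 for Tbx3 by edgeR. Fits that left out 1 control library are given as sizes only. Without control replicate 1 and without control replicate 2, the log2 fold change was 0.89 and 1.005 for Ulk3. In the same order it was 1.81 and 1.23 for Tbx3, 0.67 and 1.13 for Ccnd2, and 0.52 and 0.78 for Osr2. Those fits take the lone control library to vary like the vKO-labelled pair. Tbx3os1 lies antisense to exons of Tbx3, with 6 and 4 counts in the control pair, against 8 and 13 in the vKO-labelled pair. Many target genes are also expressed independently of hedgehog.

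The authors' deposited table gave nearly the same log2 fold changes for the members. In the authors' deposited table they were 0.12 for Dhh, 0.24 for Ptch1, 0.39 for Smo, -0.31 for Gli1, 0.85 for Gli2, 0.17 for Gli3, 0.82 for Hhip and 0.06 for Sufu. The smallest p there was 0.124, for Gli2, and the authors' deposited table holds no adjusted p for Gli1, Gli2 and Hhip.

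Because YTHDF2 binds m6A, which is found mainly in motifs such as GGACT, that motif was counted in the longest M21 transcript of each member. Sufu held 9 and Smo 8, or 1.99 and 2.12 per kb, at percentiles 87.6 and 89.8 of the genes tested, whose median was 1.02 per kb. Ptch1 held 16, Gli3 13 and Gli2 11, at 1.54, 1.59 and 1.66 per kb. Dhh and Gli1 held 5 each, at 1.18 and 1.23 per kb, and Hhip held 2, at 0.220 per kb. A motif count measures no methylation, and neither Sufu nor Smo passed the test between genotypes.

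The genes with the pattern most like Dhh over the 4 libraries were BC061195, Arf5 and Mrto4, whose centred log2 CPM differed from that of Dhh by a root mean square of 0.00303, 0.00648 and 0.00648. Of 17826 genes compared, 2421 lay within 0.1, so that a flat pattern like that of Dhh was common. The genes most like Gli1 were Vps51, Wdr92 and Acy1, at 0.0213, 0.0218 and 0.0265, and 172 genes lay within 0.1. With 4 libraries such likeness is a description only.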

How the data were processed

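Whole-testis RNA-seq of 4 libraries, 2 per genotype, was analysed from 1 table. The authors deposited raw read counts per gene, per the file headers. Reads were processed with HISAT2 2.1.0 and HTSeq 0.6.1p1, per the submitters' processing notes; the genome build, annotation and counting settings are not given in the sources used here. The authors also deposited a mean normalized count (a signal), a log2 fold change, its standard error, a test score, a p-value and an adjusted p-value, under column names of DESeq2, per the file headers. The score was not used.

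Counts were fitted with edgeR 4.0.16 (limma 3.58.1, R 4.3.3): TMM scaling, the filterByExpr filter, a quasi-likelihood fit of genotype with robust estimation, a two-sided test, and Benjamini-Hochberg adjustment over 21132 genes, called at an adjusted p under 0.05. Standard errors are the absolute log2 fold change over the square root of F, and 95% intervals use the fit's degrees of freedom. Alternatives covered scaling, filter, robustness, DESeq2 1.42.0, the replicate block, a lowess GC offset and leaving out each library. Replicate libraries differed beyond sampling noise (chi-square per degree of freedom 21.17 and 8.415) and were kept apart. The fit was tested on simulated data. Reads carry no molecular identifiers, so floors cover counting error only. Coordinates and lengths are from GENCODE M21 (GRCm38), which held 25241 of the 25265 identifiers, and promoters from RefSeq (GRCm38.p6); the authors' build may differ. The members and lists were chosen with earlier results of these data known. Named genes are all members, Ythdf2, called pathway and target genes or the 3 of smallest p in each list, Shh and Ihh, the most abundant gene of a quoted list, and the 3 genes most like Dhh and Gli1; 2 further genes of the rule are not reported here. Lists not quoted in the results, none of which was used there, were endothelial cells, macrophages, and rete testis and epididymis, with median log2 fold changes of 0.35, 0.07 and -0.15.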

Additional observations from a re-analysis of the deposited data

How the results depend on the processing

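The direction of Dhh, Smo, Gli1, Gli2 and Gli3 was kept under all 13 alternatives run. None of them was called, but the DESeq2 Wald test gave no adjusted p for Gli1 and Gli2. The log2 fold change ran from 0.04 to 0.18 for Dhh, from 0.21 to 0.54 for Smo, from -0.54 to -0.11 for Gli1 and from 0.06 to 0.27 for Gli3. Sufu turned to -0.0538 with the GC offset and to -0.0515 when that offset was joined to the replicate block (adjusted p = 0.905 and 0.853 by edgeR). Without vKO-labelled replicate 1, Ptch1 was at -0.0942. Leaving out each library in turn moved Dhh from 0.07 to 0.16, Ptch1 from -0.09 to 0.51, Smo from 0.22 to 0.54, Gli1 from -0.54 to -0.11, Gli2 from 0.65 to 1.05, Gli3 from 0.06 to 0.27, Sufu from -0.10 to 0.24 and Hhip from 0.23 to 1.83. Hhip passed the filter or was tested under 5 alternatives only. Hhip had 2 to 11 counts per library, so depth limits its values. The block changed no call of a member.

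The numbers of genes called moved from 59 higher and 24 lower to 181 and 37 with library totals alone, 137 and 80 with the DESeq2 Wald test, and 89 and 67 with the GC offset, and to 15 lower without robust estimation. The replicate block gave 627 and 390, and joining it to the GC offset gave 292 and 311. That block alone called 1 other pathway gene (Ulk3) and 2 target genes (Ccnd2 and Tbx3), and both changes together called 1 target gene (Ccnd2) and Ythdf2, which was higher. The labels do not say that replicate numbers pair libraries, so the numbers were not taken as pairs. Deviations from the group mean correlated at 0.0904 over 17817 genes between libraries sharing a number. With 2 libraries per group the second pair mirrors the first, so this value cannot decide whether the libraries were paired. The cause of these changes in the calls was not tested. With library totals alone, the median over all genes was a log2 fold change of 0.0674.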
